A study of Mus musculus with 12 samples.

Results

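Histone lysine methyltransferases and demethylases are the enzymes that write and erase methyl groups on lysines of histone tails and cores. The genes described here were every row of the expression table whose symbol follows the Kdm, Kmt or Setd naming pattern, together with Ehmt1, Ehmt2, Ezh1, Ezh2, Nsd1, Nsd2, Nsd3, Suv39h1, Suv39h2, Dot1l and Ash1l. The Y-linked Kdm5d was left out. This gave 44 of the 31723 genes in the table, namely 27 methyltransferases or SETD relatives and 17 demethylases or relatives. The pattern takes names and no measured value, though it was chosen with earlier results of these data known. It passes over some enzymes of the same kind, such as Setdb1.

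The RNA came from mouse limb buds at E12.5, when the limb skeleton is laid down as cartilage. The conditional knockout, called cKO, carried the genotype Mettl14 flox/flox and the control, called cHet, carried Mettl14 wt/flox, so both genotypes had at least 1 floxed allele. Each genotype had 3 input libraries of total RNA and 3 libraries after immunoprecipitation with an antibody against N6-methyladenosine (m6A), which makes 12 libraries. The labels call the replicates biological, and say nothing of the Cre driver, the sex of the embryos or any pooling of embryos. If embryos share a litter or a pool, the p-values measure only the spread between these samples.

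Mettl14 encodes the RNA-binding partner of Mettl3 in the complex that writes m6A on messenger RNA, a mark that is known to shorten the life of many transcripts and that gathers near stop codons and in long internal exons. Histone methylation marks are read by position: H3K4 methylation lies at promoters and enhancers, H3K36 and H3K79 methylation along transcribed genes, and H3K9, H3K27 and H4K20 methylation over silent or compact chromatin. Many of these enzymes are very large proteins with long coding exons, and several are known to act on Hox and other patterning genes in the limb.

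Levels are given as FPKM (fragments per kilobase of transcript and per mapped library total) and log2 changes are cKO over cHet on the log2(FPKM + 1) scale. Column sums of FPKM were 237288 to 255907 in cKO and 261692 to 275300 in cHet, and total read counts are unknown from this table. The targeted gene, Mettl14, had 2.67, 3.07 and 2.63 FPKM in the cKO libraries, against 5.08, 4.54 and 4.39 FPKM in the cHet libraries. Its level in cKO was 59.8% of that in cHet (log2 change -0.58 ± 0.08 SE, limma adjusted p = 0.00289), and in a bulk sample fewer cells of a type and less RNA per cell cannot be told apart. The libraries also differed in sex-linked RNA. Xist, the RNA of the inactive X chromosome, had 43.5, 40.6 and 81.4 FPKM in cKO replicates 1, 2 and 3, against 0.0442, 0.0211 and 78.8 FPKM in the cHet replicates. The Y-linked genes Kdm5d and Uty were near 0 in cKO replicate 3 and low in cHet replicate 3, and they were present in replicates 1 and 2 of both genotypes. So cKO replicates 1 and 2 held both Xist and Y-linked RNA, while cHet replicates 1 and 2 held Y-linked RNA with almost no Xist. Whether a library pools embryos of both sexes was not tested. Results that the sex-linked differences could touch are also given without replicate 3 of both genotypes. That fit does not balance Xist, which stays at 43.5 and 40.6 FPKM in cKO against 0.0442 and 0.0211 FPKM in cHet. Sex-linked RNA and genotype therefore cannot be told apart in it.

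Of the 44 enzymes, 43 had a mean of at least 1 FPKM and were tested. Of these, 22 were called higher in cKO (adjusted p under 0.05 by limma), 0 were called lower and 21 were not called. Over all 13575 tested genes, 36.2% were called, with 18.7% called higher and 17.5% called lower. No enzyme was lower even at an unadjusted p under 0.05, where limma likewise counted 0. The median log2 change was 0.27 over the 43 enzymes and -0.003 over all tested genes. In 29 of the 43 enzymes all 3 cKO values lay above all 3 cHet values, against 26.0% of all tested genes, and in 0 did all lie below. When each library was rescaled to the mean FPKM sum, 32 enzymes were called higher and 0 lower. Under that scaling the median of all genes itself moved to 0.105, higher calls made up 73.7% of all calls against 51.6% without it, and the enzymes' median stood 0.28 above that of all genes.

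The called enzymes were spread over nearly all roles, with H3K4, H3K36 and H3K79 methyltransferases holding the largest log2 changes. Among methyltransferases and SETD relatives 15 of 27 were called higher, with a median log2 change of 0.27. Among demethylases and relatives 7 of 16 were called higher, with a median of 0.30. The only demethylase that missed the level filter was Kdm4d, at 0.0659, 0.0316 and 0.110 FPKM in cKO and 0.0464, 0.158 and 0.0723 FPKM in cHet.

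**Figure D1:**
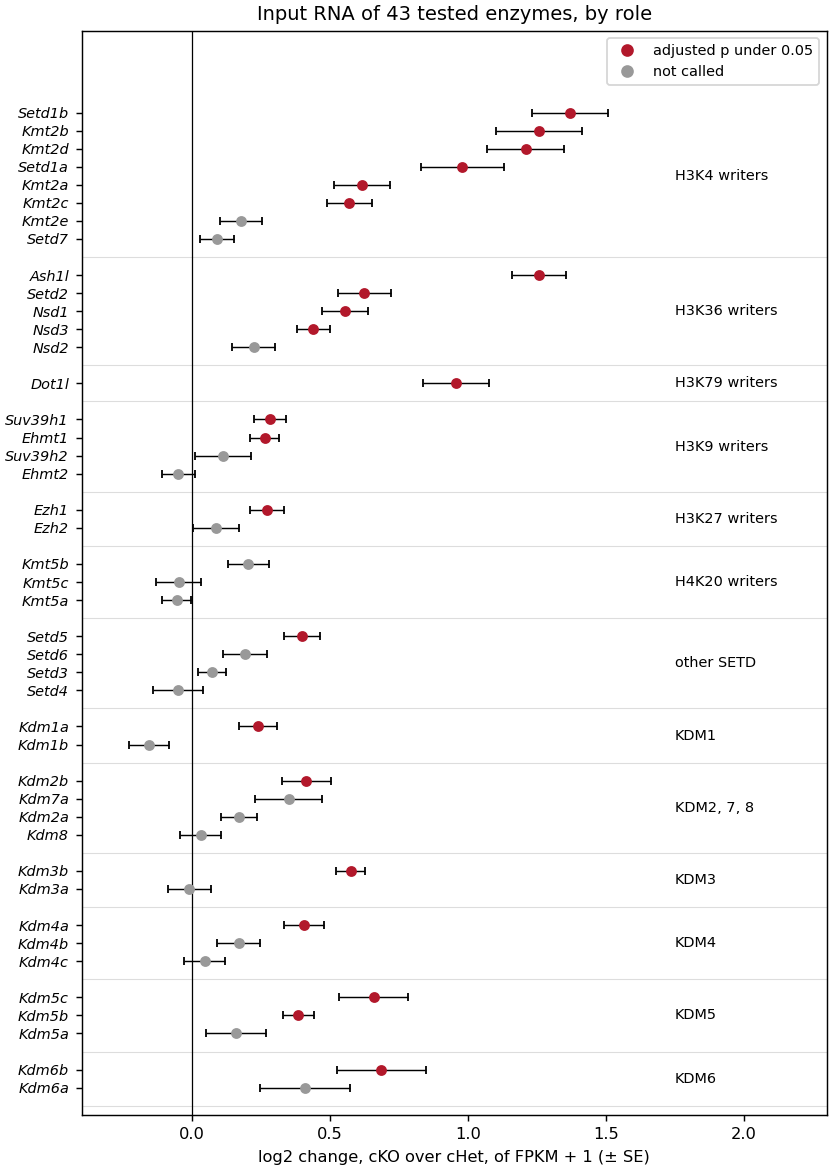
The log2 change of input RNA (cKO over cHet, FPKM + 1, x axis) is shown for the 43 tested enzymes grouped by role, with bars of 1 SE from limma, n = 3 per genotype. Red points are the 22 enzymes called higher, grey points are the 21 not called, and the H3K4 group at the top reaches 1.37 for Setd1b.

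The H3K4 methyltransferases included most of the largest log2 changes. Of the 8 in this group, 6 were called higher, 0 lower and 2 not called, with a median log2 change of 0.80. Setd1a and Setd1b are the catalytic subunits of the complexes that place most H3K4 trimethylation at promoters. Setd1b (ENSMUSG00000038384, chromosome 5, 123142193 to 123168629, plus strand) had 8.96, 10.2 and 9.79 FPKM in the cKO libraries, against 2.44, 3.02 and 4.02 FPKM in the cHet libraries. Every cKO library was above every cHet library, and cHet replicate 3 was the highest of the controls. Its mean was 9.64 ± 0.618 FPKM in cKO limb buds and 3.16 ± 0.802 FPKM in cHet limb buds (SD, n = 3 each), a ratio of 3.05-fold (log2 change 1.37 ± 0.14 SE, limma adjusted p = 0.00126). Setd1a (ENSMUSG00000042308, chromosome 7, 127776670 to 127800122, plus strand) had 18.5, 20.4 and 21.3 FPKM in the cKO libraries, against 8.05, 8.88 and 12.6 FPKM in the cHet libraries. The genotypes again did not overlap and the ratio was 2.04-fold (log2 change 0.98 ± 0.15 SE, limma adjusted p = 0.00408).

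Kmt2a and Kmt2b carry the related catalytic subunits of the complexes that hold Menin and keep Hox and other developmental genes active. Kmt2b (ENSMUSG00000006307, chromosome 7, 30568858 to 30588726, minus strand) had 15.6, 15.9 and 17.2 FPKM in the cKO libraries, against 4.82, 5.99 and 8.17 FPKM in the cHet libraries. All cKO values were well above the highest control, which was cHet replicate 3, and the ratio was 2.57-fold (log2 change 1.26 ± 0.16 SE, limma adjusted p = 0.00222). Kmt2a (ENSMUSG00000002028, chromosome 9, 44803355 to 44881296, minus strand) had 7.57, 7.13 and 7.41 FPKM in the cKO libraries, against 3.86, 4.27 and 5.34 FPKM in the cHet libraries. The groups were apart here too, with a ratio of 1.64-fold (log2 change 0.62 ± 0.10 SE, limma adjusted p = 0.00527).

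Kmt2c and Kmt2d place H3K4 monomethylation at enhancers. Kmt2d (ENSMUSG00000048154, chromosome 15, 98831669 to 98871204, minus strand) had 11.1, 9.81 and 10.9 FPKM in the cKO libraries, against 3.32, 3.66 and 5.24 FPKM in the cHet libraries. The lowest cKO library was well above the highest cHet library, replicate 3, and the ratio was 2.60-fold (log2 change 1.21 ± 0.14 SE, limma adjusted p = 0.00183). Kmt2c, at a lower level of 4.22 ± 0.285 FPKM in cKO limb buds and 2.52 ± 0.257 FPKM in cHet limb buds (SD, n = 3 each), changed by a log2 of 0.57 (limma adjusted p = 0.00322). The remaining members of the group were Kmt2e, a divergent relative with little known activity of its own, at a log2 change of 0.18 (limma adjusted p = 0.114), and Setd7, which monomethylates H3K4 and many other proteins, at 0.09 (limma adjusted p = 0.293). Neither was called, though in both the 3 cKO values lay above the 3 cHet values, and without cHet replicate 3 Kmt2e was called (0.25, limma adjusted p = 0.0216).

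Among the H3K36 methyltransferases, 4 of 5 were called higher and 0 lower, with a median log2 change of 0.55. Ash1l (ENSMUSG00000028053, chromosome 3, 88950622 to 89079375, plus strand), which opposes Polycomb silencing by placing H3K36 dimethylation, had 13.4, 14.5 and 15.4 FPKM in the cKO libraries, against 6.20, 4.73 and 5.52 FPKM in the cHet libraries. The genotypes were far apart, with cHet replicate 1 the highest control, and the ratio was 2.63-fold (log2 change 1.26 ± 0.10 SE, limma adjusted p = 0.000683). Setd2 (ENSMUSG00000044791, chromosome 9, 110532597 to 110618633, plus strand), the enzyme for H3K36 trimethylation behind elongating RNA polymerase, had 18.3, 20.3 and 21.5 FPKM in the cKO libraries, against 13.4, 11.1 and 13.5 FPKM in the cHet libraries. Its groups did not overlap and the ratio was 1.58-fold (log2 change 0.62 ± 0.10 SE, limma adjusted p = 0.00412). Nsd1 and Nsd3, which dimethylate H3K36, changed by log2 values of 0.55 (limma adjusted p = 0.00383) and 0.44 (limma adjusted p = 0.00283). Nsd2 had 13.1, 13.2 and 14.3 FPKM in the cKO libraries, against 12.52, 11.4 and 10.4 FPKM in the cHet libraries, groups that also did not overlap, but at 0.22 ± 0.08 SE it was not called (limma adjusted p = 0.0612). Without cHet replicate 1 it was (0.28, limma adjusted p = 0.0308).

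Dot1l is the only known H3K79 methyltransferase and acts on elongating genes. Dot1l (ENSMUSG00000061589, chromosome 10, 80755206 to 80795461, plus strand) had 13.3, 14.0 and 14.2 FPKM in the cKO libraries, against 5.45, 6.61 and 8.05 FPKM in the cHet libraries. The lowest cKO library was above the highest cHet library, which was replicate 3, and the ratio was 2.06-fold (log2 change 0.96 ± 0.12 SE, limma adjusted p = 0.00229).

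**Figure D2:**
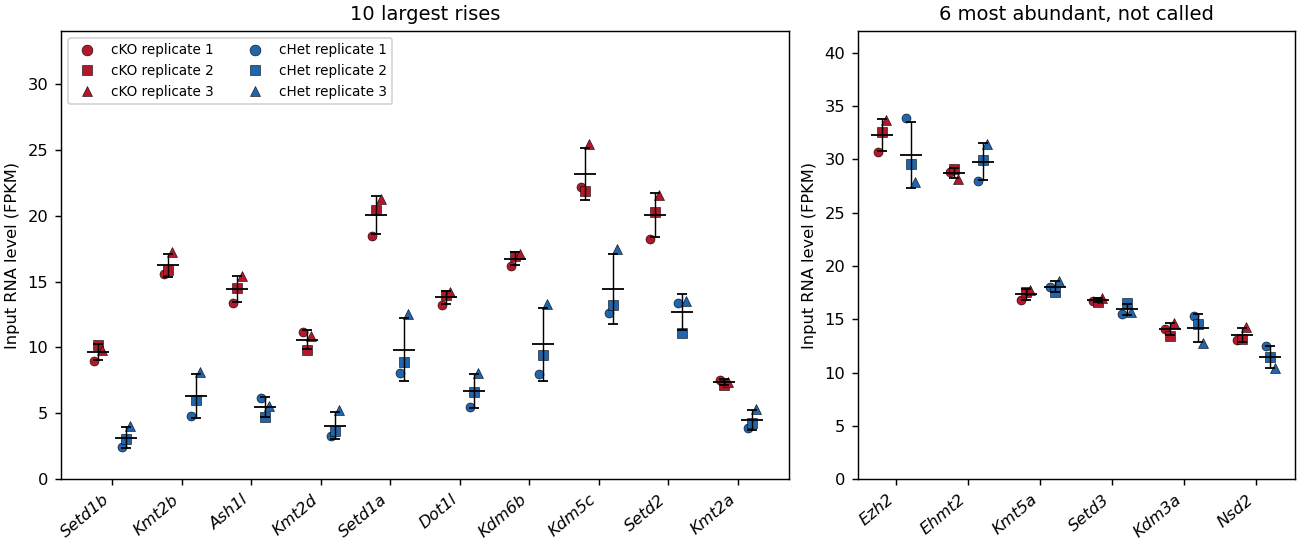
Input RNA level (FPKM, y axes) in each library for the 10 called enzymes with the largest log2 change (left) and the 6 most abundant enzymes that were not called (right), with cKO in red left of cHet in blue and bars for mean and SD (n = 3). In the left panel no cKO point falls within the range of its cHet points, while Ezh2 and Ehmt2 overlap near 30 FPKM.

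Upstream sequence, 250 bases before the annotated start, was matched in a RefSeq table (GRCm38.p6) for 32 of the 44 enzymes. Of the enzymes called higher, 8 had a window wholly outside the gene span in the authors' table, and the 5 of these with the largest log2 change are shown, as upstream sequence of enzymes whose RNA was high in every cKO library. Capitals mark GGGCGG or its reverse complement CCGCCC, the letters of the GC box searched on both strands. Kmt2d (chr15:98871206-98871455, minus strand), Dot1l (chr10:80754953-80755202, plus strand), Setd2 (chr9:110532347-110532596, plus strand), Kmt2c (chr5:25498784-25499033, minus strand) and Kdm4a (chr4:118180044-118180293, minus strand) read 5′ to 3′ as follows.
Kmt2d: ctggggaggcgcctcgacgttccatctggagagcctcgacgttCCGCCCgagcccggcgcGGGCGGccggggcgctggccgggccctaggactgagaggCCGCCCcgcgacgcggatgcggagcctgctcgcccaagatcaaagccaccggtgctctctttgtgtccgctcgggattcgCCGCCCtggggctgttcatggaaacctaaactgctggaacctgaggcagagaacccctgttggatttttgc
Dot1l: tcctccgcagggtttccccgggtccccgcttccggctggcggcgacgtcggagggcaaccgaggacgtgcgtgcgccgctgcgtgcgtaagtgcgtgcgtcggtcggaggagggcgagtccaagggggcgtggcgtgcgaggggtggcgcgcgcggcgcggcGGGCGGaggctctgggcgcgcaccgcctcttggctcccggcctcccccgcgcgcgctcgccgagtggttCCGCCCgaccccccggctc
Setd2: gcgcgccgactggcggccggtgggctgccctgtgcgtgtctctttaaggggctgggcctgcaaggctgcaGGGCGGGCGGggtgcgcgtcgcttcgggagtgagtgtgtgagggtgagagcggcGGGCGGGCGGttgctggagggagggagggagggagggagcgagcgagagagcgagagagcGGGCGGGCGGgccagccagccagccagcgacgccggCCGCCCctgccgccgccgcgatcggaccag
Kmt2c: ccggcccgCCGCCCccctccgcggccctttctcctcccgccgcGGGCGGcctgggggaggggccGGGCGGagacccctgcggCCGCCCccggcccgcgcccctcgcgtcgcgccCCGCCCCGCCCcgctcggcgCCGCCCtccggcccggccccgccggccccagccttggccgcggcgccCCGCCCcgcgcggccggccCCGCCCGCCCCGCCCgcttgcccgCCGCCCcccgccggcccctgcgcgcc
Kdm4a: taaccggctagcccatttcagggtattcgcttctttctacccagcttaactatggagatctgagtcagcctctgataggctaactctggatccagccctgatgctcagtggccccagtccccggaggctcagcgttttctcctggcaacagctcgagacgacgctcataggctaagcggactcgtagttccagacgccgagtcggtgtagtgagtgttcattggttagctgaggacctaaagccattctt

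These windows were 67.6%, 78.4%, 76.0%, 91.6% and 53.6% G or C for Kmt2d, Dot1l, Setd2, Kmt2c and Kdm4a. Kdm4a held 0 GC boxes, as did Ezh1 and Kdm1a among the 3 windows not shown, while Suv39h1 held 1. The GC box stood in 19 of the 32 enzyme promoters (59.4%) and in 32.7% of all 32851 promoter windows of the same length. CCAAT on either strand stood in 12 of 32 (37.5%) against 33.9% of all, and TATAAA in 0 of 32 against 12.4% of all. The median G and C content was 60.0% in the enzymes and 52.4% over all windows, with medians of 19 and 6 CG steps. Only the first listed window of each enzyme was counted, while the background counts every window and is not limited to tested genes. A letter match is a description of these windows and not a binding site.

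H3K9, H3K27 and H4K20 methyltransferases serve silent or compact chromatin. Of the 9 under the naming pattern, which passes over Setdb1, 3 were called higher and 0 lower, and differences between roles were not tested. Of the 4 H3K9 methyltransferases, Suv39h1 and Ehmt1 were called higher, at log2 changes of 0.28 (limma adjusted p = 0.0116) and 0.26 (limma adjusted p = 0.00973). Ehmt2, the partner of Ehmt1 in H3K9 dimethylation, had 28.8, 29.1 and 28.2 FPKM in the cKO libraries, against 28.0, 29.9 and 31.4 FPKM in the cHet libraries. The groups overlapped and it was not called (log2 change -0.05 ± 0.06 SE, limma adjusted p = 0.543), and the sign of its change turned with the scaling. Suv39h2, which like Suv39h1 trimethylates H3K9, was not called at 0.11 (limma adjusted p = 0.419). Ezh2, the catalytic subunit of Polycomb repressive complex 2 in dividing cells, was the most abundant of the 43 enzymes in cKO. It had 30.7, 32.6 and 33.7 FPKM in the cKO libraries, against 33.9, 29.5 and 27.9 FPKM in the cHet libraries. These ranges overlapped, with cHet replicate 1 above all cKO libraries, and the change was not called (log2 change 0.09 ± 0.08 SE, limma adjusted p = 0.438). Ezh1, its less abundant relative, was called higher at 3.30 ± 0.113 FPKM in cKO limb buds and 2.56 ± 0.0858 FPKM in cHet limb buds (SD, n = 3 each) (log2 change 0.27, limma adjusted p = 0.0152). These 3 calls were lost in some fits with 1 library fewer, at log2 changes close to those of all libraries. Without cHet replicate 2 the log2 change was 0.27 for Ezh1, 0.26 for Ehmt1 and 0.26 for Suv39h1 (limma adjusted p = 0.0639, 0.0515 and 0.0585). Without cKO replicate 2 it was 0.25 for Ezh1 and 0.26 for Suv39h1 (limma adjusted p = 0.0676 and 0.0517).

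Of the 3 H4K20 methyltransferases, 0 were called by limma, and 1, Kmt5b, had an unadjusted p under 0.05. Kmt5a, the H4K20 monomethyltransferase of the cell cycle, had 16.8, 17.5 and 17.7 FPKM in the cKO libraries, against 18.0, 17.6 and 18.6 FPKM in the cHet libraries, a log2 change of -0.06 (limma adjusted p = 0.438). Its groups overlapped at nearly the same level. Kmt5b and Kmt5c, which add the further methyl groups, changed by 0.20 and -0.05 on the log2 scale (adjusted p from limma 0.0750 and 0.669). The signs of Kmt5a and Kmt5c turned with the scaling. Among the SETD relatives that act mainly outside histones or with unclear activity, Setd5 was called higher (log2 change 0.40, limma adjusted p = 0.00515) and Setd3, Setd4 and Setd6 were not. Setd6 was called without cKO replicate 1 (0.26, limma adjusted p = 0.0487). Setd3, known to methylate actin, had 16.7, 16.7 and 17.0 FPKM in the cKO libraries, against 15.5, 16.6 and 15.7 FPKM in the cHet libraries, where cHet replicate 2 came close to the cKO values and the log2 change was 0.07 (limma adjusted p = 0.306).

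Among the demethylases, at least 1 enzyme of each role group was called higher, where KDM2, KDM7 and KDM8 were taken as 1 group. The KDM6 enzymes erase H3K27 methylation. Kdm6b (ENSMUSG00000018476, chromosome 11, 69398508 to 69413675, minus strand) had 16.2, 17.0 and 17.1 FPKM in the cKO libraries, against 7.97, 9.40 and 13.3 FPKM in the cHet libraries. The cKO libraries were close to each other and above the controls, among which replicate 3 was highest, and the ratio was 1.64-fold (log2 change 0.69 ± 0.16 SE, limma adjusted p = 0.0173). Without cKO replicate 2, cKO replicate 3 or cHet replicate 2 the log2 change of Kdm6b was 0.68, 0.67 and 0.65, about as large, and the limma adjusted p was 0.0563, 0.0504 and 0.0632.

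The KDM5 enzymes erase H3K4 trimethylation, the mark that Setd1a and Setd1b place. Kdm5c (ENSMUSG00000025332, chromosome X, 152233020 to 152274535, plus strand) had 22.2, 21.9 and 25.4 FPKM in the cKO libraries, against 12.6, 13.2 and 17.5 FPKM in the cHet libraries. Each genotype was highest in its replicate 3 and the groups did not overlap, with a ratio of 1.61-fold (log2 change 0.66 ± 0.13 SE, limma adjusted p = 0.00865). Kdm5b was called higher as well (log2 change 0.39, limma adjusted p = 0.00341), while Kdm5a had overlapping groups and was not called (0.16, limma adjusted p = 0.285).

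The KDM3 enzymes erase H3K9 mono- and dimethylation. Kdm3b was called higher, at 9.57 ± 0.306 FPKM in cKO limb buds and 6.10 ± 0.0548 FPKM in cHet limb buds (SD, n = 3 each) (log2 change 0.57, limma adjusted p = 0.00102). Kdm3a had 14.1, 13.5 and 14.6 FPKM in the cKO libraries, against 15.3, 14.6 and 12.7 FPKM in the cHet libraries, with overlapping groups and a log2 change of -0.01 (limma adjusted p = 0.929), whose sign also turned with the scaling. In the KDM4 family, which erases H3K9 and H3K36 trimethylation, Kdm4a was called higher (0.41, limma adjusted p = 0.00656), and Kdm4b and Kdm4c were not (0.17 and 0.05). Kdm2b, an H3K36 demethylase that brings a Polycomb complex to CpG islands, was called higher (0.41, limma adjusted p = 0.0129). Its relatives Kdm2a, Kdm7a and Kdm8 were not called, at log2 changes of 0.17, 0.35 and 0.03, and the signs of Kdm8 and Kdm4c turned under quantile normalization. Kdm1a, the flavin-dependent H3K4 demethylase also known as LSD1, was called at the smallest log2 change of the 22, 0.24 (limma adjusted p = 0.0349), and its relative Kdm1b had the lowest value of the 43 at -0.16 (limma adjusted p = 0.130). Without cKO replicate 2, cKO replicate 3, cHet replicate 1 or cHet replicate 2 the log2 change of Kdm1a was 0.23, 0.20, 0.23 and 0.22 (limma adjusted p = 0.112, 0.111, 0.0788 and 0.127). Without cKO replicate 2 or cHet replicate 2 that of Kdm2b was 0.38 and 0.39, near its value with all libraries (limma adjusted p = 0.0528 and 0.0550). Kdm7a was called without cHet replicate 1 (0.46, limma adjusted p = 0.0227).

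Kdm5c, Kdm6a and Suv39h1 are X-linked, and Kdm5c and Kdm6a are known to escape X inactivation. Kdm6a, an H3K27 demethylase, had 8.51, 8.94 and 11.9 FPKM in the cKO libraries, against 6.50, 6.01 and 8.87 FPKM in the cHet libraries. The groups overlapped, with cHet replicate 3 close to cKO replicates 1 and 2, and the change was not called (log2 change 0.41 ± 0.16 SE, limma adjusted p = 0.0917). Between the replicates numbered 3 alone, which both had high Xist, Kdm5c was at 25.4 FPKM in cKO and 17.5 FPKM in cHet, and Kdm6a at 11.9 FPKM in cKO and 8.87 FPKM in cHet. With replicate 3 of both genotypes left out, 21 enzymes were called higher. Kdm6a was called in that fit (log2 change 0.42, limma adjusted p = 0.0149) and Suv39h1 was not (0.27, limma adjusted p = 0.0522). Kdm5c kept its call there, as in all 16 alternatives (log2 changes of 0.574 to 0.812 over them). Leaving out cHet replicate 3 alone also gave a call for Kdm6a (0.56, limma adjusted p = 0.0275). In both of these fits every cKO library left had Xist and the cHet libraries left had almost none. Sex-linked RNA and genotype cannot be told apart there. Kdm6a was called in 5 of the 16 alternatives in all, so in other fits than these as well. The Y-linked relatives Kdm5d and Uty differed with the sex-linked RNA of the library. Kdm5d had 1.98, 2.36 and 0.00496 FPKM in cKO, against 4.57, 4.08 and 0.583 FPKM in cHet. Uty had 2.07, 2.71 and 0.00319 FPKM in cKO, against 5.20, 4.14 and 0.688 FPKM in cHet. The part of embryo sex in the changes of X-linked enzymes was not tested beyond these values.

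**Figure D3:**
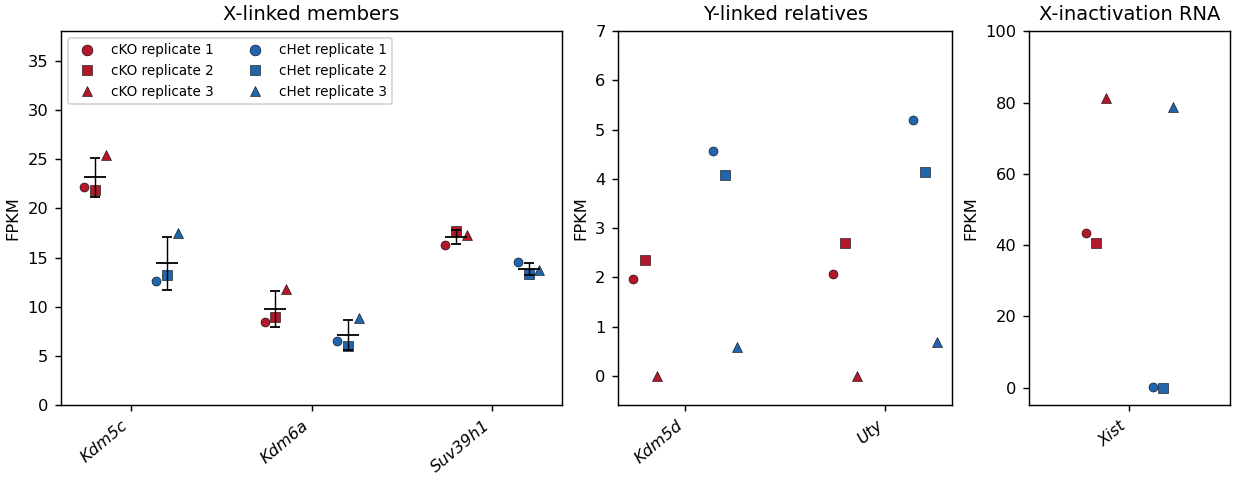
Input RNA level (FPKM, y axes) in each library of the X-linked enzymes Kdm5c, Kdm6a and Suv39h1 (left, bars are mean and SD, n = 3), the Y-linked relatives Kdm5d and Uty (middle) and Xist (right), with cKO in red left of cHet in blue. Replicate 3 of each genotype has low Y-linked RNA and Xist near 80 FPKM, and Kdm5c is higher in every cKO library than in every cHet library.

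Among the controls, replicate 3 stood nearest to the cKO libraries for these enzymes. It was the highest cHet library in 26 of the 43 enzymes (60.5%), in 16 of the 22 called higher and in all 6 called H3K4 methyltransferases, against 36.7% of all tested genes. Among the cKO libraries replicate 3 was likewise most often the highest, in 30 of the 43 enzymes and in 6533 of the 13575 tested genes. Relative to the cHet mean, the 43 enzymes had median log2 deviations of 0.22, 0.31 and 0.32 in the cKO libraries, against -0.03, -0.04 and 0.06 in the cHet libraries. The same medians over all tested genes lay between -0.019 and 0.034. Without cHet replicate 3, limma called 24 enzymes higher.

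Partners of these enzymes were called about as often as genes in general. Over 5 partner lists 10 of 42 tested genes were called higher (23.8%, against 18.7% of all tested genes) and 7 lower (16.7%, against 17.5%). Of 12 subunits of the H3K4 complexes, 4 were called higher and 2 lower. Ncoa6, a subunit of the Kmt2c and Kmt2d complexes, averaged 12.7 ± 0.852 FPKM in cKO limb buds and 8.37 ± 0.615 FPKM in cHet limb buds (SD, n = 3 each) (log2 change 0.54, limma adjusted p = 0.00309). Dpy30, a core subunit of all these complexes, averaged 43.5 ± 2.48 FPKM in cKO limb buds and 53.6 ± 0.917 FPKM in cHet limb buds (SD, n = 3 each) (-0.30, limma adjusted p = 0.0106). Of 8 tested PRC2 subunits other than Ezh1 and Ezh2, 0 were called higher and 3 lower, of which the histone chaperone Rbbp7 changed most at -0.35 (limma adjusted p = 0.00656). Of 9 partners of Kdm1a, 3 were called higher and 2 lower, led by Gse1 (log2 change 0.54) and the deacetylase Hdac1 (-0.40).

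Of 9 partners of the H3K9 enzymes, only Morc2a was called, higher at 0.48 (limma adjusted p = 0.00575), and of 4 Dot1l partners 2 were called higher, led by Mllt6 at 0.40 (limma adjusted p = 0.0116). Among 17 tested lysine methyltransferases and jumonji proteins outside the naming pattern, 9 were called higher and 0 lower, against 18.7% and 17.5% of all tested genes. The largest change there was Riox1, a jumonji hydroxylase, at 1.22 (limma adjusted p = 0.000558). Setdb1, an H3K9 methyltransferase singled out after its values were seen, had 36.1, 37.7 and 39.1 FPKM in the cKO libraries, against 16.8, 16.7 and 16.4 FPKM in the cHet libraries, with groups far apart (log2 change 1.13 ± 0.05 SE, limma adjusted p = 0.000310). Of 8 tested arginine methyltransferases, 1 was called higher and 2 lower, led by Prmt9 (log2 change 0.24) and Prmt7 (-0.26), a share near the 36.2% of all tested genes that were called.

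Several lists of cell type markers also differed between the genotypes, and their part in the changes of the enzymes was not tested. Over all tested genes 18.7% were called higher and 17.5% lower. Of 6 tested limb mesenchyme markers 4 were called higher, and their summed level was 479.5 to 563.4 FPKM in cKO against 361.8 to 373 FPKM in cHet. Of 5 chondrocyte markers 4 were called lower (summed level 93.6 to 106.6 FPKM in cKO, 147.8 to 161.8 FPKM in cHet), as were 4 of 5 muscle markers (208.4 to 337.6 FPKM in cKO, 358.1 to 390.1 FPKM in cHet) and 2 of 5 endothelial markers (33.7 to 37.5 FPKM in cKO, 41.2 to 46.0 FPKM in cHet). Of 5 erythroid and 4 leukocyte markers 0 were called, with overlapping sums of 2678 to 5421 FPKM in cKO and 3204 to 4533 FPKM in cHet for the erythroid genes and of 11.9 to 13.0 FPKM in cKO and 11.1 to 13.8 FPKM in cHet for the leukocyte genes. Of 5 epidermal markers 1 was called higher, a share near that of all tested genes, with sums of 175.7 to 188.6 FPKM in cKO and 149.3 to 169.9 FPKM in cHet.

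The authors' m6A peak lists, 1 per genotype, put peaks on nearly all of these enzymes. Each peak in the authors' deposited table carries a log2 enrichment of immunoprecipitated RNA over input, and with 1 list per genotype a difference between lists has no replicate and no test. In the cKO list all 43 tested enzymes had at least 1 peak, against 90.3% of all tested genes. In the cHet list all 43 had at least 1, against 89.1% of all tested genes. Only Kdm4d, which was not tested, had none. The enzymes held 268 of the 46758 peaks in the cKO list and 221 of the 41196 peaks in the cHet list, so the cKO list was also the longer over all genes. At least 5 peaks were listed for 29 of the 43 tested enzymes in cKO (67.4%, against 17.8% of all tested genes) and for 23 in cHet (53.5%, against 12.1% of all tested genes). The number per enzyme had a median of 6 in cKO (1 to 14) and 5 in cHet (1 to 13).

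By the authors' location class, peaks of these enzymes lay more in coding exons and less at stop codons than peaks in general, as shares without a test. Exonic peaks were 36.6% of the enzymes' peaks in cKO and 31.7% in cHet, against 19.2% and 17.4% of all peaks in the cKO and cHet lists. Stop codon peaks were 5.60% in cKO and 9.05% in cHet, against 15.2% and 18.9% of all peaks. Peaks of the class 3′ UTR were 39.6% in cKO and 43.0% in cHet, against 37.3% and 36.5% of all peaks. Median log2 enrichment of the enzymes' peaks was 1.43 in cKO and 1.68 in cHet, and over all peaks 1.59 in cKO and 1.87 in cHet.

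The strongest peaks of the named enzymes lay mostly in the cHet list. For Kmt2d the authors' deposited table gives an exonic peak of log2 enrichment 1.89 in cKO (chr15:98849377-98850651) and 3.47 in cHet (chr15:98849327-98850976). A second exonic peak of Kmt2d had 1.49 in cKO (chr15:98844432-98846231) and 3.07 in cHet (chr15:98843155-98846431). For Setd1b the exonic peak was 1.66 in cKO (chr5:123147817-123148841) and 3.26 in cHet (chr5:123147592-123148841). In each case the overlapping peak was listed in both genotypes at a lower enrichment in cKO. These peaks were picked for the highest enrichment in either list, so a lower value in the other list can come from the choice alone.

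For Kmt2b, whose peaks were not among the strongest, the authors' deposited table gives an exonic peak of 1.28 in cKO (chr7:30574516-30575240) and 2.75 in cHet (chr7:30574416-30575540). This pair had the largest difference on Kmt2b. Its other pairs, also exonic, had 2.24 in cKO and 2.703 in cHet, and 1.135 in cKO and 1.898 in cHet. Among the strongest were also a 3′ UTR peak of Setd3, at 2.04 in cKO and 3.01 in cHet, and an exonic peak of Kmt2a, at 1.92 in cKO and 2.94 in cHet. Setd2 and Ash1l had their strongest cHet peaks over the start codon, where the values were 2.01 in cKO and 3.19 in cHet for Setd2 and 2.26 in cKO and 3.03 in cHet for Ash1l, in spans that include introns. In the cKO list the strongest peak of Setd2 was one of the class 3′ UTR, at 2.44. The highest cHet value of any of these enzymes, 3.82, was at the start codon of Nsd1, where the cKO list had 2.78. Kdm5c at its stop codon had 2.27 in cKO and 3.01 in cHet. Ehmt2 differed in direction, with an exonic peak of 3.02 in cKO (chr17:34903026-34906306) and 2.83 in cHet (chr17:34903076-34906206).

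Taking each peak with its best overlapping partner in the other list gave 183 pairs on the enzymes. Paired spans can differ in length, and a stretch joined in 1 list can be split in the other. For Ash1l a span of 31695 bases in cKO was paired with 75923 bases in cHet, and for Ezh1 5583 bases with 100. Of these, 125 (68.3%) had the lower enrichment in cKO, against 59.0% of 33432 pairs over all genes. The median was 1.59 in cKO and 1.89 in cHet, and the median of the paired differences was -0.28, against -0.12 over all genes. A difference of at least 1 log2 unit towards lower values in cKO was seen in 32 pairs on 20 enzymes, and 1 pair differed as much the other way. Pairs past this limit were not counted over all genes, where differences also leaned towards lower values in cKO. The lower and upper quartiles of the paired differences were -0.835 and 0.082 on the enzymes, against -0.638 and 0.185 over all genes.

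By role, 42 of 49 pairs on the H3K4 methyltransferases were lower in cKO (medians 1.55 in cKO and 2.16 in cHet). Kmt2d had 10 of 11 pairs lower, Setd1b and Kmt2a 6 of 7 each, Kmt2c 5 of 6, Setd1a 4 of 4, Kmt2b 3 of 3, Kmt2e 4 of 5 and Setd7 4 of 6. The H3K36 methyltransferases had 16 of 23 pairs lower (medians 1.84 in cKO and 2.22 in cHet). The demethylases had 43 of 67 lower (medians 1.57 in cKO and 1.78 in cHet), among which all 8 pairs of Kdm2a and all 6 of Kdm2b were lower and only 3 of 10 of Kdm5a. The other methyltransferases and SETD relatives had 24 of 44 lower (medians 1.49 in cKO and 1.66 in cHet). Enrichment is taken over input, and the input libraries are those of the RNA comparison, so the 2 sets of values share libraries and stand side by side without a test of their relation.

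**Figure D4:**
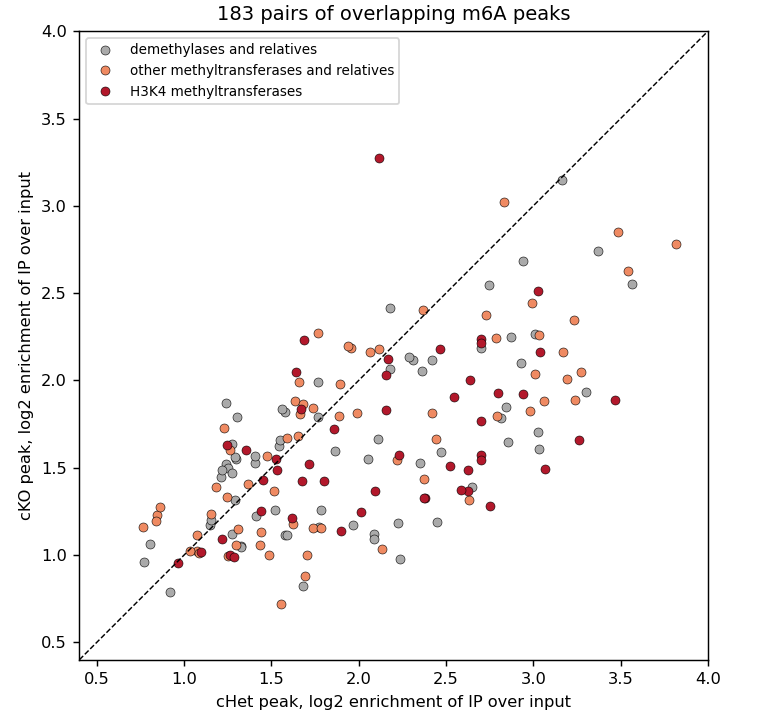
Each point is 1 of 183 pairs of overlapping m6A peaks on these enzymes, with the authors' log2 enrichment of immunoprecipitated RNA over input in the cKO list (y axis) and the cHet list (x axis), coloured by role. The dashed line marks equal values, and 125 pairs, among them 42 of 49 on H3K4 methyltransferases, lie below it.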

How the data were processed

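Per the submitters' processing notes, fastp and HISAT2 were used with genome build mm10. Which program made the expression values, whether it used strand, and which peak caller was run, was not given in the sources used here, so reads of overlapping genes may be shared between them. Per the file headers, the authors deposited FPKM values per gene in 6 input columns. Each peak list, 1 per genotype, holds the authors' log2 enrichment and p-value for every peak, per the file headers. Spans in these lists include introns, and 1 was added to each start because the lists count from 0. The joint fit planned for immunoprecipitated and input libraries was not run, since only the lists carry immunoprecipitation values here. The depth of each library is unknown, and whole reads could not be recovered from the FPKM values.

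Input RNA was compared with limma 3.58.1 in R 4.3.3 (lmFit, then eBayes with a trend) on log2(FPKM + 1), which understates changes of low genes. Tested genes had 1 FPKM or more on average over the 6 libraries, and the tests were two-sided with Benjamini-Hochberg adjustment over all 13575 genes and a threshold of 0.05. The fit was tested on simulated data. Ratios without log2 are of mean FPKM. Peaks were paired between lists by reciprocal best overlap of at least 1 base. Values per library are given for Mettl14, the 10 called enzymes with the largest log2 change and the 6 most abundant enzymes not called, and per partner list the called gene with the largest change in each direction is named. Kdm6a, Setdb1 and the sex-linked genes were added after their values were seen, as were the fit without replicate 3 of both genotypes and the rescaling to the mean FPKM sum. Members and lists were chosen with earlier results of these data known. Alternatives changed the pseudocount, filter, scaling, prior trend, replicate block and libraries. Columns of per-sample values matched to no sample numbered 0. Promoter sequences are from RefSeq.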

Additional observations from a re-analysis of the deposited data

How the results depend on the processing

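The count of 22 enzymes called higher by limma stayed within 16 to 32 over the 16 alternatives, and the count called lower was 0 in each. It was 16 to 24 when 1 library was left out, lowest without cHet replicate 2 and highest without cHet replicate 3, and 17 without cKO replicate 2. Of the 22, 16 were called in every alternative. Those that lost their call at least once were Kdm1a, Suv39h1, Kdm6b, Ezh1, Ehmt1 and Kdm2b, and 10 of the 21 enzymes not called were called in at least 1 alternative. No called enzyme changed sign (0 of 22).

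The median log2 change of the enzymes moved to 0.33 with a filter of at least 5 FPKM, where 36 enzymes were tested, to 0.42 with libraries rescaled to sum to 1000000 and to 0.39 with libraries rescaled to their mean FPKM sum, an alternative chosen after seeing the data. The sum of 1000000 also lowers the weight of the pseudocount and lets 17317 genes pass the filter, against 13575 with the mean sum, and both gave 32 enzymes called higher. These scalings turned the sign of Ehmt2 (0.0768 and 0.0749), Setd4 (0.0274 and 0.0172), Kmt5a (0.0690 and 0.0663), Kdm3a (0.1159 and 0.1101) and Kmt5c (0.0746 and 0.0695), all not called. Quantile normalization turned Ehmt2 (0.0432), Kdm4c (-0.0053) and Kdm8 (-0.0098). Without replicate 3 of both genotypes, chosen after seeing the data, Ehmt2 (0.0011), Suv39h2 (-0.0093), Ezh2 (-0.0002), Kdm5a (-0.0005) and Kmt5c (0.0356) turned sign, and again none was called. Leaving out 1 library turned Kdm3a (-0.0814 to 0.0403), Kdm8 (-0.0010 to 0.0896) and Kmt5c (-0.0960 to 0.0369), where the lowest and highest values are given. For these sign changes around 0 the cause was not tested.

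With the replicate number as a block, 19 enzymes were called higher and 0 lower, and the calls over all genes dropped to 2889, against 4912 without the block. Same-numbered cKO and cHet libraries had correlations of deviations of -0.08, 0.04 and -0.20, and differently numbered ones ranged from -0.25 to 0.29. With 3 libraries per genotype these values cannot show whether the numbers pair the samples. Over all genes, calls were 2758 without cHet replicate 2, 3032 without cKO replicate 2 and 5109 without cHet replicate 3. With peak spans under 1000 bases, 63 of 128 cKO peaks and 64 of 99 cHet peaks on the enzymes overlapped a peak of the other list, against 210 of 268 cKO peaks and 197 of 221 cHet peaks with all spans. Over all genes the overlapping share was 57.3% of cKO peaks and 67.9% of cHet peaks under that limit, against 79.2% of cKO peaks and 87.1% of cHet peaks with all spans, and the cause was not tested.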

Other observations

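Peaks without an overlapping partner in the other list were weak beside all peaks of these enzymes, whose medians were 1.43 in cKO and 1.68 in cHet. Enrichment and class of unpaired peaks over all genes were not computed. A trait of these enzymes therefore cannot be read from the values below. In the cKO list 58 such peaks on 30 enzymes had a median log2 enrichment of 1.09 in the authors' deposited table (0.87 to 1.45), and in the cHet list 24 on 19 enzymes had 1.26 (0.84 to 1.89). A partner was present for 78.4% of the enzymes' cKO peaks and 89.1% of their cHet peaks, against 79.2% of all cKO peaks and 87.1% of all cHet peaks. Of the 58 in cKO, 19 were exonic, 18 in the 3′ UTR, 11 intronic, 7 over a start codon and 0 over a stop codon. Of the 24 in cHet, 7 were exonic, 13 in the 3′ UTR, 3 intronic and 1 over a stop codon.

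The 1 pair with an enrichment higher in cKO by at least 1 log2 unit was an exonic peak of Setd7, which monomethylates H3K4, with 3.28 in cKO (chr3:51550045-51550519) and 2.12 in cHet (chr3:51550070-51550469). The other 5 pairs of Setd7 differed by -0.41 to 0.02. Its input RNA was 6.72, 6.61 and 7.46 FPKM in the cKO libraries, against 6.36, 6.51 and 6.45 FPKM in the cHet libraries, and it was not called (limma adjusted p = 0.293).

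Depth, sex and pooling limit these values. The number of reads behind a peak is unknown, a difference between 2 lists carries no error, and FPKM are relative to the library total, so a shift common to all RNA could not be seen.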
